A study of Mus musculus with 28 samples.

Results

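The 6 genes described here encode the 3 classical opioid receptors, mu (*Oprm1*), delta (*Oprd1*) and kappa (*Oprk1*), the nociceptin receptor (*Oprl1*), the precursor of nociceptin (*Pnoc*) and the CB1 cannabinoid receptor (*Cnr1*). They were chosen by name and matched by symbol to the Ensembl genes of the count tables, where all 6 were found among 29878 listed genes, and all 6 were among the 14979 genes that passed the expression filter and were tested. RNA-seq had been carried out on 28 libraries from 4 dissected brain regions of wild-type (WT) mice, mice heterozygous for the *Hdc* knockout allele (HET) and homozygous knockout mice (KO), aged 2 to 3 months and backcrossed onto C57Bl/6. *Hdc* encodes histidine decarboxylase, the enzyme that makes histamine, and the allele is constitutive, so no group is limited to a cell type. The dorsal striatum (DS) gave 2 WT, 3 HET and 2 KO libraries, the ventral striatum (VS) 3, 3 and 2, the motor cortex (MC) 1, 2 and 2, and the hypothalamus (HY) 3, 3 and 2. The sample names carry a digit, 1 to 3 in WT, 4 to 6 in HET and 7 and 8 in KO. Neither the labels nor the methods explain it. It was read here as the mouse, and all counts of mice rest on that reading.

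All 4 opioid receptors and CB1 are receptors that couple to inhibitory G proteins, which lower cyclic AMP, open inwardly rectifying potassium channels and close presynaptic calcium channels. The opioid receptors answer to peptides cut from a few precursors, enkephalins from *Penk*, dynorphins from *Pdyn*, beta-endorphin from *Pomc* and nociceptin from *Pnoc*, while CB1 answers to lipids made on demand by the cell that receives a synapse. In the striatum these receptors sit on spiny projection neurons and on the terminals that contact them, and they bear on reward, movement and habit; in the hypothalamus they bear on feeding, stress and temperature.

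Library depth was 3536802 to 5150280 counts on genes, and levels are given as CPM, the count of a gene scaled to a common library total by the trimmed mean of M values (TMM, factors 0.734 to 1.22). Marker genes followed the region labels in every library. The summed CPM of 11 spiny neuron genes was 10268 to 14050 in the dorsal striatum and 2804 to 5822 in the ventral striatum, against 1049 at most elsewhere. That of 10 cortical excitatory neuron genes reached 2298 to 2484 in the motor cortex against 632 at most elsewhere, and 12 hypothalamic neuron genes reached 201 to 361 in the hypothalamus against 20.8 at most elsewhere. Markers of other tissue were high in some libraries. Choroid plexus genes summed to 3847 CPM in the dorsal striatum of KO mouse 8 against 120.3 to 253 in the other 6 dorsal striatal libraries. Cortical genes summed to 456 in the dorsal striatum of KO mouse 7, to 196 in that of WT mouse 2 and to between 91.9 and 141 in the other 5. In the hypothalamus of KO mouse 8 cortical genes summed to 632 CPM, against 249 to 390 in the other 7. The knocked-out gene did not follow the labels downwards: *Hdc* averaged 0.449 CPM in WT, 5.53 in HET and 8.66 in KO dorsal striatum, 0.634, 5.35 and 12.2 in the ventral striatum, 0.0, 5.11 and 8.95 in the motor cortex and 17.1, 17.2 and 12.9 in the hypothalamus. KO against WT was higher in the first 3 regions (adjusted p = 1.53e-11, 1.29e-20 and 9.06e-09) and did not pass in the hypothalamus (adjusted p = 0.839). The files count whole genes, so the part removed by the targeting cannot be read apart. Genotypes are therefore given as labelled, here and wherever a direction is stated.

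Positions are those of GRCm38 with the GENCODE M21 models. *Oprm1* (ENSMUSG00000000766) lies at chr10:6758506-7038198 on the plus strand and *Oprd1* (ENSMUSG00000050511) at chr4:132110726-132144486 on the minus strand. *Oprk1* (ENSMUSG00000025905) lies at chr1:5588466-5606131 and *Oprl1* (ENSMUSG00000027584) at chr2:181715016-181720985, both on the plus strand. *Cnr1* (ENSMUSG00000044288) lies at chr4:33924593-33948831 on the plus strand and *Pnoc* (ENSMUSG00000045731) at chr14:65400673-65425472 on the minus strand. The merged exons, untranslated parts included, add up to 8037, 4021, 9151, 3753, 6444 and 2157 bases in that order. Levels of different genes are compared per kilobase of these, except where stated. The count covers all exons of a gene. Of the 6 genes, *Oprm1* alone shares exonic sequence with another gene, 96 bases with *Ipcef1* on the opposite strand, and since the library kit did not keep strand, reads falling there could not be assigned.

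The regional pattern was the main feature of these genes. The mu receptor was lowest in the motor cortex, the delta receptor was highest in the dorsal striatum and motor cortex and lowest in the hypothalamus, the nociceptin receptor and its ligand were highest in the hypothalamus and lowest in the dorsal striatum, and CB1 was highest in the dorsal striatum. Over the 6 pairs of regions, with the 3 genotypes weighted equally, 31 of the 36 member differences passed an adjusted p of 0.05 (edgeR's likelihood ratio test, Benjamini-Hochberg adjustment over all 14979 genes). Between the 2 striatal regions all 6 passed, 3 higher and 3 lower in the dorsal striatum, where 29.0% of all genes passed (14.6% higher, 14.4% lower). Dorsal striatum against motor cortex gave 3 higher and 2 lower (all genes 43.4%, with 21.4% higher and 22.0% lower), and dorsal striatum against hypothalamus 3 and 3 (56.1%, 25.5% and 30.7%). Ventral striatum against motor cortex gave 2 and 2 (43.6%, 22.2% and 21.5%), ventral striatum against hypothalamus 2 and 2 (43.6%, 19.7% and 23.9%), and motor cortex against hypothalamus 2 and 4 (48.2%, 22.9% and 25.4%). With libraries scaled by size alone, dorsal against ventral striatum gave 2 and 3 and ventral striatum against hypothalamus 1 and 3. The 2 regions did not overlap in any library for 4, 5, 6, 4, 2 and 6 members in the same order of pairs, where this held for 9.65%, 26.4%, 27.9%, 24.6%, 16.0% and 30.3% of all genes. These are bulk tissue pieces, in which fewer cells of a type and less RNA per cell cannot be told apart, and the libraries of a mouse were treated as separate.

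**Figure D1:**
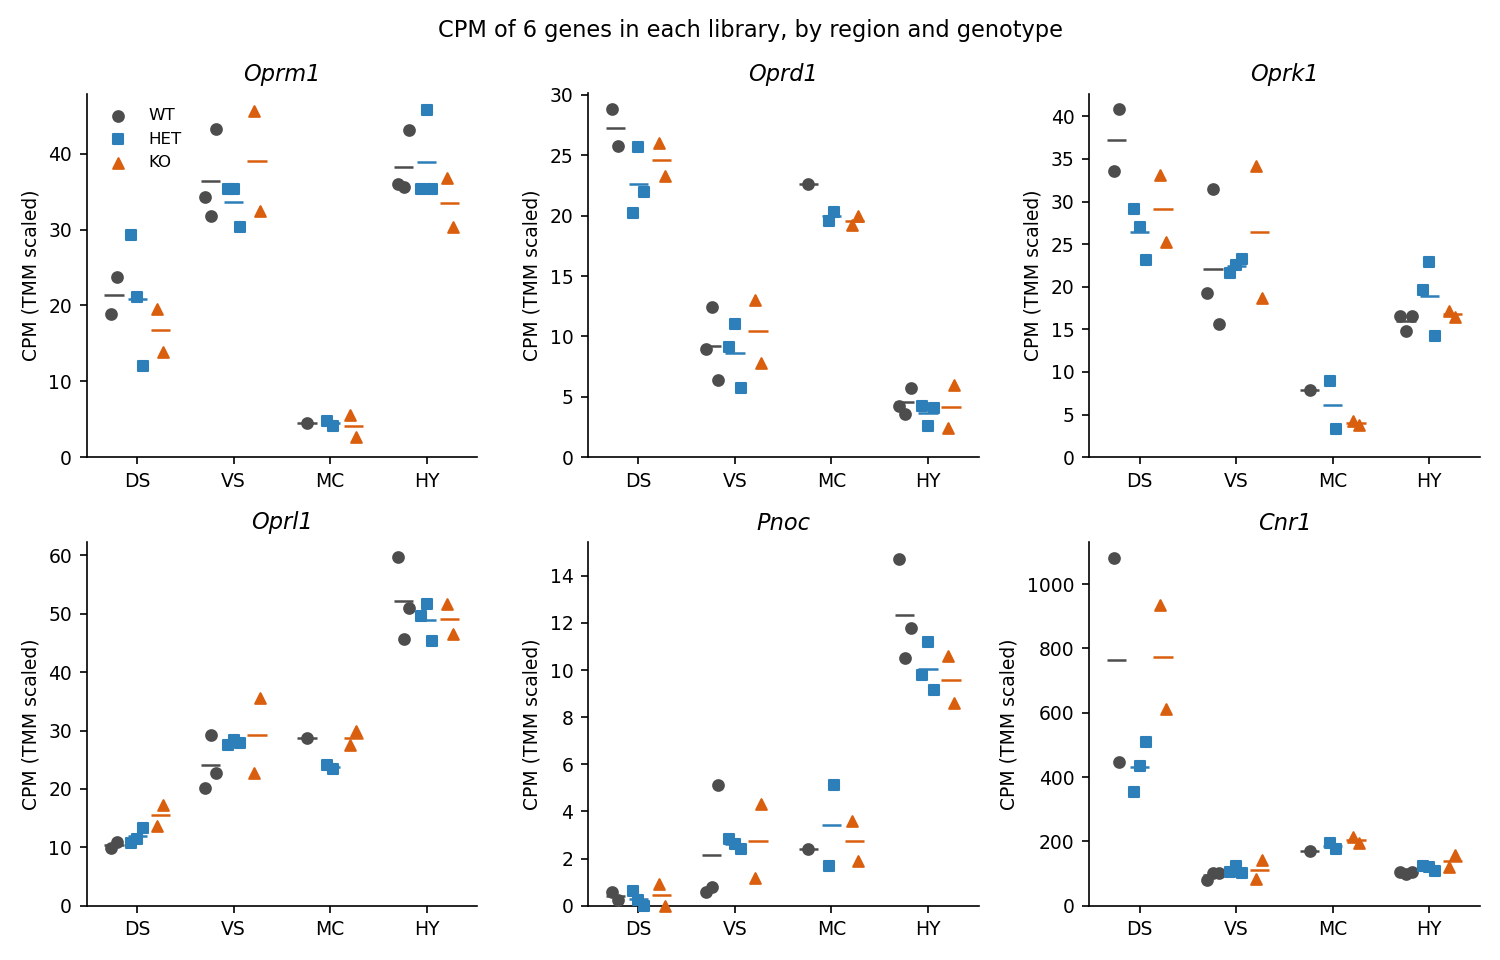
CPM (TMM scaled, linear axes from 0) of the 6 genes in each of the 28 libraries, by region (DS, VS, MC, HY); grey circles are WT, blue squares HET and orange triangles KO libraries, and short lines are group means. *Oprm1* lies between 2.7 and 5.6 CPM in all 5 motor cortex libraries, *Oprl1* and *Pnoc* are highest in all 8 hypothalamic libraries, and *Cnr1* spreads from 352 to 1081 CPM in the dorsal striatum.

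*Oprm1*, the receptor for morphine and the main receptor for beta-endorphin, was measured at 4.56 CPM in the WT motor cortex library, at 4.83 and 4.11 in the HET and at 5.6 and 2.7 in the KO libraries of that region, from 10 to 25 counts each. Its lowest, median and highest levels were 30.3, 35.8 and 45.8 CPM in the 8 hypothalamic libraries, 30.4, 34.8 and 45.6 in the 8 ventral striatal libraries and 12, 19.6 and 29.3 in the 7 dorsal striatal libraries. The motor cortex did not overlap any other region, the dorsal striatum lay below both the ventral striatum and the hypothalamus without overlap, and the latter 2 covered nearly the same range. The log2 fold change was 3.03 (SE 0.21, adjusted p = 7.7e-49) from motor cortex to ventral striatum and 2.14 (SE 0.22, adjusted p = 2.43e-23) from motor cortex to dorsal striatum. Dorsal striatum was below ventral striatum by a log2 fold change of -0.89 (SE 0.14, adjusted p = 4.2e-09), in each of the 7 mice with both regions. Ventral striatum and hypothalamus did not pass (log2 fold change -0.02, 95% interval -0.27 to 0.23, adjusted p = 0.928).

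*Oprd1*, the delta receptor and a main target of enkephalins, ran in another order. Its level was 20.2 at the lowest, 25.7 at the median and 28.8 CPM at the highest in the dorsal striatum, and 22.6 (WT), 19.6 and 20.3 (HET) and 19.2 and 20 (KO) in the motor cortex. In the ventral striatum it was 5.74, 9.01 and 13.0 and in the hypothalamus 2.38, 4.17 and 6.01 (lowest, median, highest). Dorsal striatum and motor cortex thus lay above both other regions without overlap, while ventral striatum and hypothalamus overlapped. That overlap was between the hypothalamus of KO mouse 8 (6.01 CPM) and the ventral striatum of HET mouse 6 (5.74). The next highest hypothalamic library was at 5.73 and the next lowest ventral striatal library at 6.41. The hypothalamus of KO mouse 8 was the hypothalamic library with the most cortical transcripts. Their part in its value was not tested. *Oprd1* was 5.99-fold higher in dorsal striatum than in hypothalamus (log2 2.58, SE 0.16, adjusted p = 1.31e-61). It was also 2.63-fold higher in dorsal than in ventral striatum (log2 1.40, SE 0.14, adjusted p = 2.12e-21) and 2.28-fold higher in ventral striatum than in hypothalamus (log2 1.19, SE 0.17, adjusted p = 2.43e-11). Dorsal striatum against motor cortex did not pass (log2 0.26, 95% interval -0.03 to 0.55, adjusted p = 0.151), although the dorsal striatal library was the higher in all 5 mice with both.

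*Oprk1*, the dynorphin receptor, was low in the motor cortex, at 7.93 CPM in the WT library, 8.93 and 3.34 in the HET and 4.25 and 3.78 in the KO libraries. Elsewhere its lowest, median and highest levels were 23.1, 29.1 and 40.8 CPM in the dorsal striatum, 15.6, 22.1 and 34.2 in the ventral striatum and 14.2, 16.6 and 22.9 in the hypothalamus. The motor cortex was below each of these without overlap, and the dorsal striatum was above the hypothalamus without overlap. From motor cortex to dorsal striatum the difference was 5.24-fold (log2 2.39, SE 0.21, adjusted p = 1.25e-29), and from hypothalamus to dorsal striatum 1.78-fold (log2 0.83, SE 0.15, adjusted p = 7.95e-08). The 2 striatal regions overlapped, with dorsal above ventral in 5 of 7 mice, and the difference (log2 0.38, SE 0.15, adjusted p = 0.0382) was lost with DESeq2 (adjusted p = 0.0624) and in 10 of 15 fits that each left out 1 library (adjusted p up to 0.198). The 5 that kept it were those without the dorsal striatum of WT mouse 1, HET mouse 6 or KO mouse 8 or the ventral striatum of WT mouse 2 or KO mouse 7. Nor did it pass among HET (log2 0.24, adjusted p = 0.589) or KO libraries alone (0.14, adjusted p = 0.855). Dorsal striatum against hypothalamus did not pass among HET libraries alone (log2 0.48, adjusted p = 0.0781). Ventral striatum against hypothalamus passed (log2 0.46, SE 0.15, adjusted p = 0.00552), but not without the ventral striatal library of KO mouse 7 (log2 0.29, adjusted p = 0.113), nor among WT, HET or KO libraries alone (adjusted p = 0.129, 0.483 and 0.109). That library had the highest spiny neuron sum of the region, 5822 CPM, and KO mouse 8 the lowest, 2804. The part of this in the result was not tested.

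*Oprl1*, the nociceptin receptor, was at 45.4, 50.3 and 59.8 CPM (lowest, median, highest) in the hypothalamus, at 20.2, 27.6 and 35.6 in the ventral striatum and at 9.89, 11.5 and 17.3 in the dorsal striatum. In the motor cortex it was 28.8 in the WT library, 24.1 and 23.4 in the HET and 27.5 and 30.0 in the KO libraries. Every hypothalamic library exceeded every other library, and every dorsal striatal library fell below every other, with ventral striatum and motor cortex together in between. The hypothalamus was 4.04-fold above the dorsal striatum (log2 fold change of dorsal striatum over hypothalamus -2.01, SE 0.11, adjusted p = 3.39e-73), and the ventral was 2.17-fold above the dorsal striatum (log2 of dorsal over ventral -1.12, SE 0.12, adjusted p = 8.67e-20). Ventral striatum and motor cortex did not pass, and their interval was narrow (log2 -0.00, 95% interval -0.23 to 0.23, adjusted p = 0.992).

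*Pnoc*, which encodes the ligand of that receptor, was sparse, with 11 counts summed over the 7 dorsal striatal libraries (0 to 4 each), 82 over the 8 ventral striatal, 60 over the 5 motor cortical and 452 over the 8 hypothalamic libraries. Its lowest, median and highest levels were 8.59, 10.6 and 14.7 CPM in the hypothalamus, 0.576, 2.5 and 5.13 in the ventral striatum and 0, 0.245 and 0.92 in the dorsal striatum, and the motor cortex gave 2.4 (WT), 1.69 and 5.14 (HET) and 3.58 and 1.89 (KO). A count of 0 was found in the dorsal striatum of HET mouse 6 and KO mouse 8, which at a limit of 3 counts allows up to 0.816 and 0.787 CPM. The hypothalamus stood above all other libraries. As summed counts over scaled depth it was 28.1-fold above the dorsal striatum (exact 95% interval 15.6 to 56.7, counting error only), 4.3-fold above the ventral striatum (3.39 to 5.51) and 3.67-fold above the motor cortex (2.8 to 4.89). In the fit the adjusted p of these 3 differences was 2.54e-35, 3.82e-14 and 1.24e-08. Dorsal striatum was also below ventral striatum (log2 -2.60, SE 0.51, adjusted p = 2.44e-08) and motor cortex (log2 -2.77, SE 0.54, adjusted p = 3.08e-08), whereas ventral striatum and motor cortex did not pass (log2 -0.17, 95% interval -0.86 to 0.52). The 2 striatal regions overlapped, and dorsal was above ventral in 1 of 7 mice. Without the dorsal striatum of KO mouse 7 these fitted values became -3.99 and -4.16, and that against the hypothalamus moved from -4.66 to -6.06, the only dorsal striatal KO library then being at 0 counts.

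*Cnr1*, the CB1 receptor, was the most abundant of the 6 genes per kilobase in every region, with mean levels of 96.8 CPM per kb in the dorsal striatum, 29.6 in the motor cortex, 18.2 in the hypothalamus and 16.2 in the ventral striatum. In the dorsal striatum its CPM were 1081 and 448 in WT mice 1 and 2, 352, 433 and 508 in HET mice 4, 5 and 6, and 936 and 610.4 in KO mice 7 and 8. The libraries thus spread widely within WT and KO. The motor cortex gave 171 (WT), 196 and 177 (HET) and 215 and 195 (KO), and the lowest, median and highest levels were 98.1, 113 and 158 in the hypothalamus and 80.1, 102 and 141 in the ventral striatum. All dorsal striatal libraries lay above all others, and all motor cortical libraries above those of the remaining 2 regions, which overlapped. It was 6.02-fold higher in dorsal than in ventral striatum (log2 2.59, SE 0.14, adjusted p = 1.38e-65). Against motor cortex it was 3.39-fold higher (log2 1.76, SE 0.16, adjusted p = 2.58e-22) and against hypothalamus 5.34-fold higher (log2 2.42, SE 0.14, adjusted p = 1.13e-59). All 3 differences were in the same direction in every mouse. Motor cortex exceeded hypothalamus by a log2 fold change of 0.66 (SE 0.16, adjusted p = 0.000111), while ventral striatum against hypothalamus did not pass (log2 -0.17, 95% interval -0.44 to 0.10, adjusted p = 0.325).

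**Figure D2:**
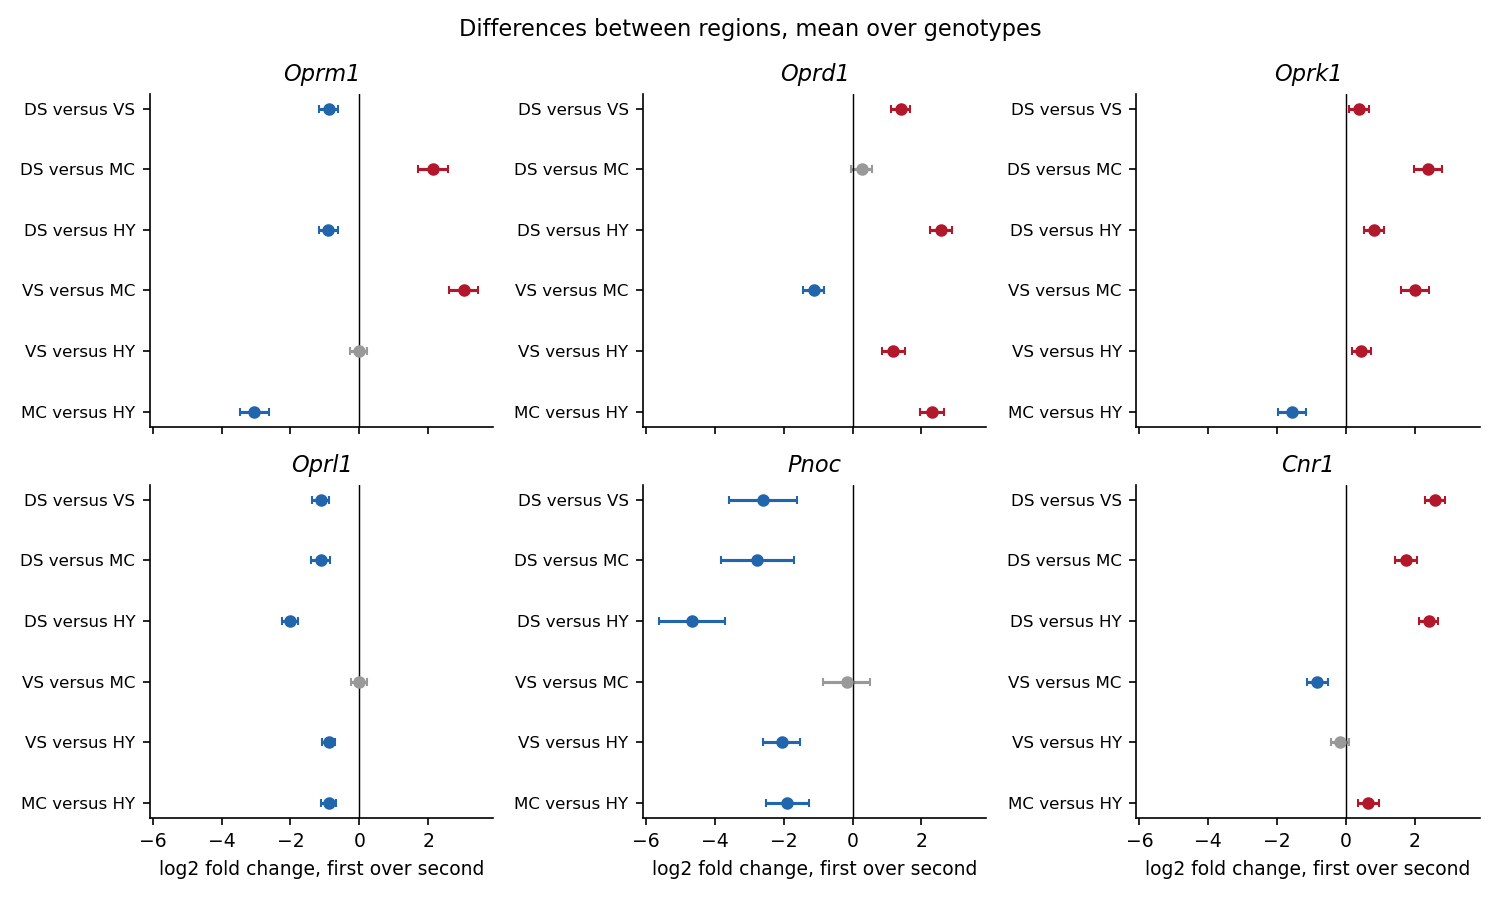
Log2 fold change of the first region over the second, mean over genotypes, for each gene; bars are 95% intervals of the fit, red marks a higher and blue a lower call at an adjusted p of 0.05, and grey marks no call. *Oprm1* reaches 3.03 for ventral striatum over motor cortex, *Pnoc* has the widest intervals, and *Oprl1* has no red point.

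Within the 4 opioid receptors, the leading receptor differed between regions, and in dorsal and ventral striatum it depended on the division by exon length. In CPM without that division, *Oprk1* had the highest mean in the dorsal striatum (30.3, with *Oprd1* at 24.6). *Oprm1* had it in the ventral striatum (36.1, with *Oprl1* at 26.8). In motor cortex and hypothalamus *Oprl1* had the highest mean in CPM too (26.8 and 50.2). Taking each receptor as a share of the 4 summed in CPM per kb, *Oprd1* was the largest in 7 of 7 dorsal striatal libraries, with a median share of 40.0% (34.0 to 45.3), and *Oprl1* was the largest in 8 of 8 ventral striatal (median 43.4%), 5 of 5 motor cortical (52.2%) and 8 of 8 hypothalamic libraries (63.5%). *Oprd1* in turn was the smallest in 8 of 8 hypothalamic libraries, at 2.86% to 7.7%. *Oprm1* held a median of 26.4% in the ventral striatum, 22.6% in the hypothalamus and 15.1% in the dorsal striatum, and 4.21% in the motor cortex. *Oprk1* held 21.6% in the dorsal striatum, 14.8% in the ventral striatum, 8.76% in the hypothalamus and 3.5% in the motor cortex, and in the motor cortex *Oprd1* held a median of 37.8%.

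**Figure D3:**
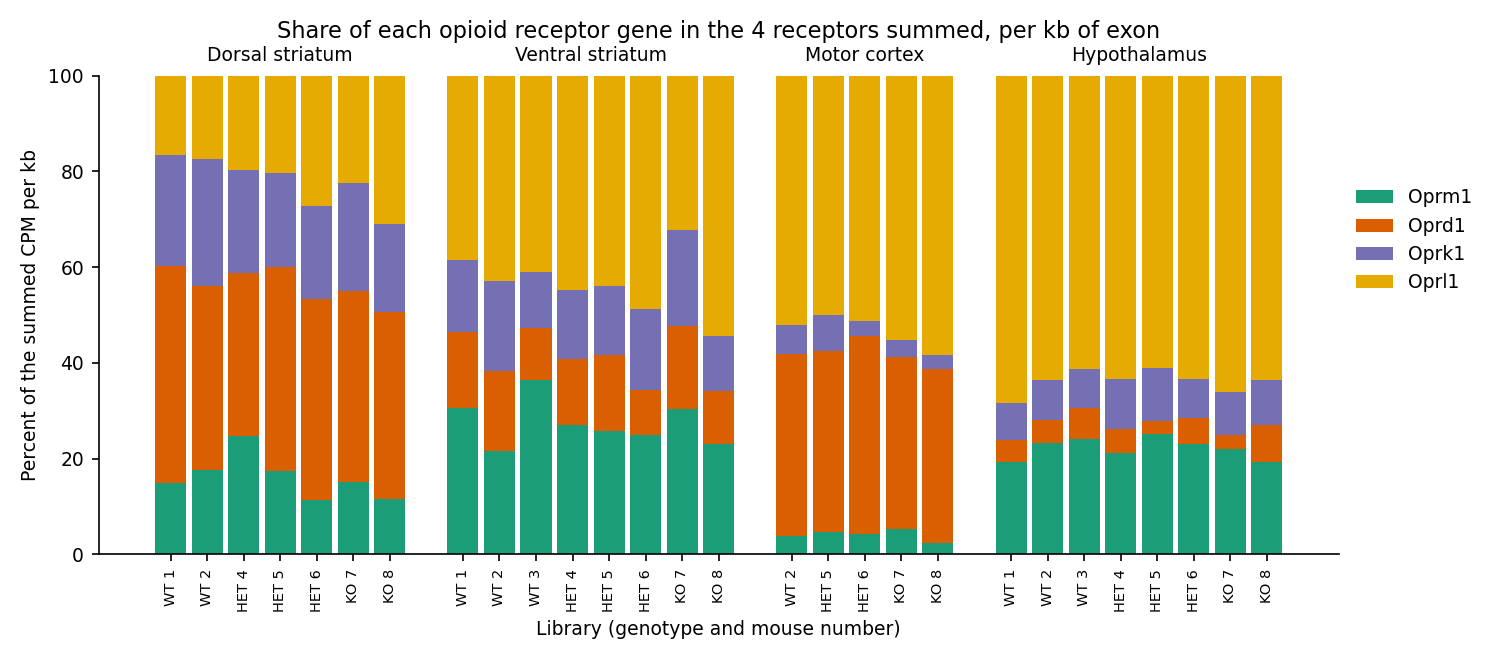
Share of each opioid receptor gene in the 4 receptors summed (percent of CPM per kb of exon, linear axis from 0 to 100), 1 bar per library, grouped by region and labelled by genotype and mouse. *Oprl1* (yellow) takes 16.6% to 31.0% in the dorsal striatum and 61.0% to 68.4% in the hypothalamus, and *Oprm1* (green) takes at most 5.24% in the motor cortex.

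*Oprd1* and *Oprl1* are shown next by their promoter windows because their regional levels ran in opposite orders, and *Cnr1* because, like *Oprd1*, it had its highest mean in the dorsal striatum. The windows are RefSeq sequence of GRCm38.p6, 250 bases before to 50 bases from an annotated start that covers the GENCODE start, written 5′ to 3′ on the strand of the gene, with CG dinucleotides in capitals. That of *Oprd1* lies at chr4:132144437-132144736, minus strand, that of *Cnr1* at chr4:33924394-33924693, plus strand, and that of *Oprl1* at chr2:181714766-181715065, plus strand.
Oprd1: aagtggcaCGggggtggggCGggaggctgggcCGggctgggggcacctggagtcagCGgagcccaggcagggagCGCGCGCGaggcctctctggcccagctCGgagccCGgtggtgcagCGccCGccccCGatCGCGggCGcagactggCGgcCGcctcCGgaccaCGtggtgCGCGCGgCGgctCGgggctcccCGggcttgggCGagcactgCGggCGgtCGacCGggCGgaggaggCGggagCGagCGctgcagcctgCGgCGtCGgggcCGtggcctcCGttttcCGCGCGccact
Cnr1: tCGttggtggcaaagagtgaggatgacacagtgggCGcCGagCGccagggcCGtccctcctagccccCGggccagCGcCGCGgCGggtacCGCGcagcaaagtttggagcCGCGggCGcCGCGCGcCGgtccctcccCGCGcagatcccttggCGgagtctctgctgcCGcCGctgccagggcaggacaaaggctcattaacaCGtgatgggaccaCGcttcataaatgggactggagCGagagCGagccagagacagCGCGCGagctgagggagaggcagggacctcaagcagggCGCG
Oprl1: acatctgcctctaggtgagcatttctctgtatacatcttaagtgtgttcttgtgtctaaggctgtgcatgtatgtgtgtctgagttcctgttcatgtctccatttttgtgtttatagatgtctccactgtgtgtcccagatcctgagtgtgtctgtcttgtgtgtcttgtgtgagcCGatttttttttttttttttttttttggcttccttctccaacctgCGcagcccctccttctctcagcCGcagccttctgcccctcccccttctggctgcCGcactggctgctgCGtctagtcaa
The *Oprd1* window was 79.3% G or C with 43 CG dinucleotides, a number reached by 2.6% of all 32851 windows, and that of *Cnr1* was 69.0% with 33, reached by 8.6%. The *Oprl1* window was 47.7% G or C with 5 CG dinucleotides, and that of *Oprm1*, at chr10:6758343-6758642, was 47.3% with 3, below the medians of 52.7% and 7 over all windows. Searched on both strands, GGGCGG (the GC box) was found 4 times in the *Oprd1* window and in 35.7% of all windows, CACGTG (an E box) once each in those of *Oprd1* and *Cnr1* and in 7.2%, and TATAAA once in that of *Oprl1* and in 13.6%. TGACGTCA, the cyclic AMP response element, was in none of these 4 windows and in 1.8% of all. No window of *Oprk1* or *Pnoc* was used.

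Across all 28 libraries, which share their regional pattern, the log2 CPM of *Oprl1* and *Pnoc* varied together (Pearson's r = 0.89), as did those of *Oprd1* and *Cnr1* (0.73) and of *Oprm1* and *Oprk1* (0.73), while *Oprd1* ran against *Oprl1* (-0.84) and against *Pnoc* (-0.82). Within regions, receptor and ligand of the nociceptin pair had r = 0.88 over the 8 hypothalamic libraries, 0.44 over the 8 ventral striatal and -0.52 over the 7 dorsal striatal ones, where *Pnoc* had 4 counts at most. *Oprl1* and *Cnr1* had -0.76 over all libraries and 0.89 within the ventral striatum. By the same measure over 28 libraries, the genes most like *Oprm1* were *Zcchc12*, *Fndc9* and *Zdbf2* (each 0.95), those most like *Oprd1* were *Nptn* (0.97), *Itpr1* and *Zfp365* (0.96), and those most like *Oprk1* were *Tac1*, *Klhl13* and *Hs6st2* (0.94). *Tac1* is a gene of direct pathway spiny neurons, which make dynorphin. The nearest to *Oprl1* were *Disp2* (0.98), *Tubb2a* and *Btbd11* (0.97), to *Cnr1* *Coch* (0.96), *Gnao1* and *Acvrl1* (0.94), and to *Pnoc* *Cib2* (0.95), *Ssh1* and *Ntrk2* (0.94). *Gnao1* encodes the alpha subunit of Go, one of the G proteins to which CB1 couples.

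The opioid peptide precursors were each highest in 1 region. *Penk*, the enkephalin precursor, averaged 1801 ± 218 CPM in the dorsal striatum (SD, n = 7), 1015 ± 251 in the ventral striatum (n = 8), 56.1 ± 7.74 in the hypothalamus (n = 8) and 25.5 ± 7.36 in the motor cortex (n = 5). All 6 pairs passed, from a log2 fold change of 0.81 for dorsal over ventral striatum (adjusted p = 1.55e-07) to 6.16 for dorsal striatum over motor cortex (adjusted p = 3.99e-128). *Pdyn*, the dynorphin precursor, was highest in the ventral striatum (106 ± 30.2) and passed in all 6 pairs, at 48.2 ± 23.2 in the dorsal striatum, 24.5 ± 6.18 in the hypothalamus and 15.1 ± 1.71 in the motor cortex. *Pomc* averaged 5.53 ± 1.42 CPM in the hypothalamus, where the neurons that make beta-endorphin lie, and 0.592 in the dorsal striatum, 0.501 in the ventral striatum and 0.202 in the motor cortex, from 4 counts a library at most outside the hypothalamus. The hypothalamus passed against each (adjusted p = 9.2e-22, 2.1e-25 and 1.96e-22), and the other pairs did not. The dorsal striatum thus combined the highest mean *Penk* with the highest mean *Oprd1*, the ventral striatum the highest *Pdyn* with an intermediate *Oprk1*, and the hypothalamus the highest *Pnoc* with the highest *Oprl1*. The motor cortex, by contrast, had the lowest mean *Penk* with a mean *Oprd1* of 20.3 CPM. That was below the 24.6 CPM of the dorsal striatum by a difference that did not pass.

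Genes around the receptors were read from lists of 53 genes, *Pnoc* included, of which 50 passed the filter. The other 3, the second cannabinoid receptor *Cnr2*, *Trpv1* and *Gpr18*, gave 3 to 17 counts summed over a region. Between dorsal and ventral striatum 15 of the 50 were higher and 16 lower in the dorsal striatum, but 12 and 21 when libraries were scaled by size alone. Of all 14979 genes, 2187 were higher and 2158 lower, and 1269 and 3794 by size alone. Between dorsal striatum and hypothalamus the list gave 16 and 23 (11 and 32 by size alone), where all genes gave 3816 and 4592 (1939 and 8127). Ventral striatum against hypothalamus gave 10 and 23 (8 and 34), where all genes gave 2950 and 3583 (1610 and 6215). Motor cortex against hypothalamus gave 24 and 17 (19 and 22), where all genes gave 3427 and 3798 (2100 and 6116). Dorsal striatum against motor cortex gave 14 and 27 of the list and 3209 and 3289 of all genes, and ventral striatum against motor cortex 13 and 26 of the list and 3320 and 3218 of all genes. Over all tested genes, that scaling moved the median log2 difference of dorsal striatum from hypothalamus from -0.04 to -0.41. The members' counts there were 3 and 3 under both.

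Endocannabinoid genes were mostly highest in the motor cortex, the region in which *Cnr1* came next to the dorsal striatum. Of 11 synthesis and breakdown genes, 9 were lower and 2 (*Abhd4* and *Naaa*) higher in dorsal striatum than in motor cortex. In ventral striatum 9 were lower and 1 (*Abhd4*) higher than in motor cortex. In motor cortex 8 were higher and 2 (*Abhd4* and *Napepld*) lower than in hypothalamus. Over all genes 43.4%, 43.6% and 48.2% were called in these 3 pairs. *Faah*, which breaks down anandamide, averaged 95.9 ± 8.4 CPM in the motor cortex (n = 5), 35.3 ± 8.14 in the hypothalamus, 23.4 ± 4.57 in the ventral striatum and 15.3 ± 4.97 in the dorsal striatum. The log2 fold change was -2.62 for dorsal striatum over motor cortex (SE 0.16, adjusted p = 6.36e-64). *Mgll*, which breaks down 2-arachidonoylglycerol, averaged 196 ± 12.7 in the motor cortex, 94.4 ± 11.4 in the dorsal striatum, 80.0 ± 6.87 in the ventral striatum and 44.8 ± 7.55 in the hypothalamus. *Dagla*, which makes it, was at 143 in the motor cortex and 98.7 in the dorsal striatum, above 56.2 and 51.3 in the hypothalamus and ventral striatum, and was higher in dorsal than in ventral striatum by a log2 fold change of 0.98 (SE 0.10, adjusted p = 3.19e-22). *Napepld*, an enzyme of anandamide synthesis, went the other way, with 13.2 ± 2.13 in the hypothalamus and 2.69 ± 0.642 in the dorsal striatum (log2 of dorsal striatum over hypothalamus -2.31, SE 0.19, adjusted p = 1.95e-43).

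**Figure D4:**
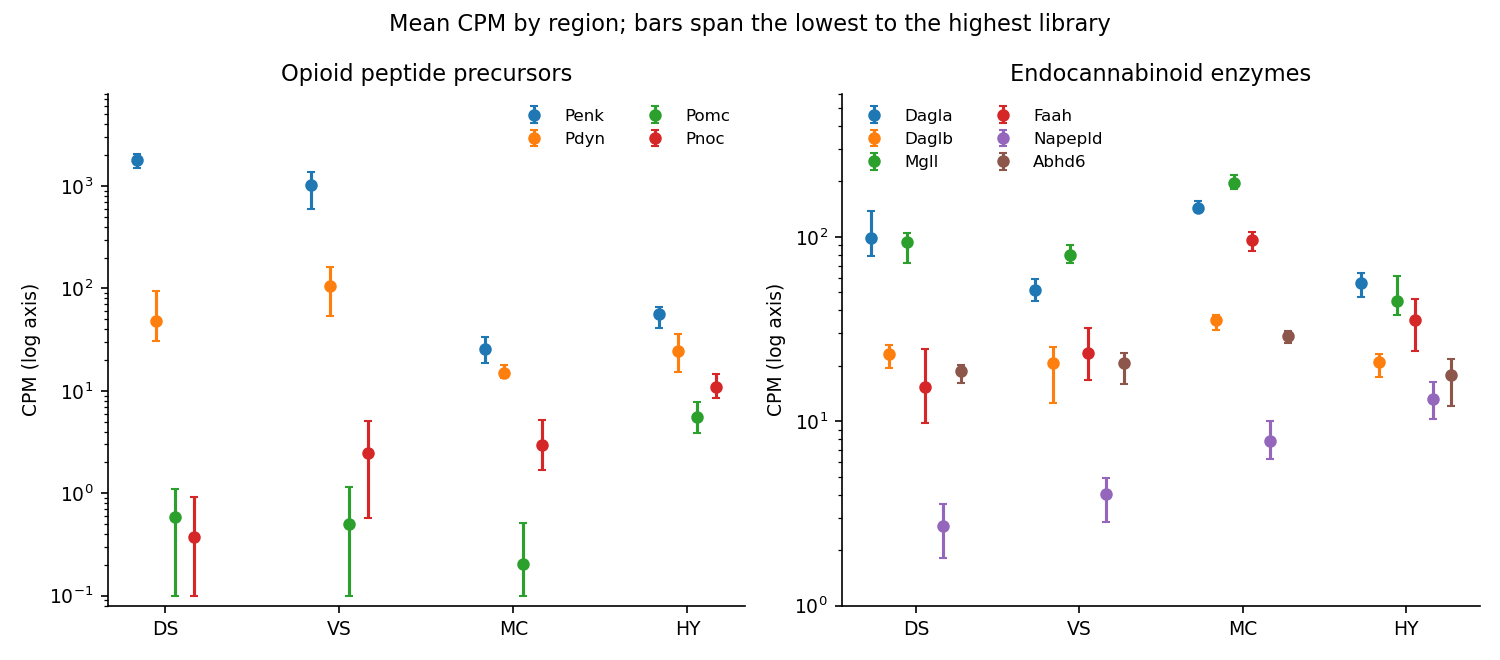
Mean CPM (log axis) of the 4 opioid peptide precursors and of 6 endocannabinoid enzymes by region; bars run from the lowest to the highest library of the region and are drawn down to 0.1 where the lowest library is at 0. *Penk* falls from 1801 CPM in the dorsal striatum to 25.5 in the motor cortex, and *Faah* and *Mgll* peak in the motor cortex at 95.9 and 196.

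Among genes of receptor coupling, *Rgs9*, a striatal regulator that shortens opioid receptor signalling, averaged 470.5 ± 67.5 CPM in the dorsal striatum (n = 7), 128 ± 37 in the ventral striatum (n = 8), 16.2 ± 2.51 in the hypothalamus and 7.29 ± 1.24 in the motor cortex. *Adcy5*, the main striatal adenylyl cyclase, averaged 1507, 689, 153 and 121 CPM in that order of regions. Of 16 such genes, 6 were higher and 7 lower in the dorsal striatum than in the hypothalamus, 5 and 8 against the motor cortex. Over all genes 25.5% were higher and 30.7% lower against the hypothalamus, and 21.4% and 22.0% against the motor cortex. Subunits of the potassium channels that these receptors open did not share 1 order. *Kcnj3* averaged 151 ± 13.3 CPM in the motor cortex, 53.4 ± 8.1 in the hypothalamus, 20.4 ± 3.63 in the ventral striatum and 14.1 ± 6.38 in the dorsal striatum, and *Kcnj9* 51.9, 23.8, 11.1 and 10.5. *Kcnj3* differed between all 4 regions (dorsal striatum over motor cortex log2 -3.44, SE 0.16, adjusted p = 4.41e-104), and *Kcnj9* in 5 of 6 pairs, the 2 striatal regions being the exception. *Kcnj5* ran the other way in the motor cortex, with 1 count over its 5 libraries (mean 0.0483 CPM) against 1.42 in the dorsal striatum, 4.19 in the ventral striatum and 8.9 in the hypothalamus, and all 6 pairs passed. The dorsal striatum thus had the highest mean *Cnr1* and *Oprd1* together with the lowest mean *Kcnj3*. Of 9 peptide processing and breakdown genes, the enkephalin-degrading *Mme* averaged 52.7 ± 21.2 CPM in the dorsal striatum against 14.0 in the ventral striatum (log2 1.91, SE 0.17, adjusted p = 3.19e-26), and the convertase *Pcsk1* 31.3 in the hypothalamus against 8.55 in the dorsal striatum (log2 of dorsal striatum over hypothalamus -1.88, SE 0.13, adjusted p = 4.63e-50).

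The study's main question was what differs between genotypes, and there no member difference passed. Over the 3 genotype pairs in each of 4 regions, 0 of 72 member tests passed in edgeR's likelihood ratio test, 5 had an unadjusted p under 0.05, and 0 passed with the quasi-likelihood test or DESeq2. Few genes passed at all. KO against WT called 0.387%, 0.0801%, 0.0334% and 0.167% of genes in dorsal striatum, ventral striatum, motor cortex and hypothalamus. In the same order of regions, HET against WT called 0.0868%, 0.0534%, 0.0134% and 0.0935%, and KO against HET 0.454%, 0.0467%, 0.00668% and 0.234%. With KO against WT averaged over dorsal striatum, ventral striatum and hypothalamus, 0 of 6 passed, where 0.527% of genes did. There 1 had an unadjusted p under 0.05, *Oprl1*, at a log2 estimate of 0.25 (95% interval 0.02 to 0.47, adjusted p = 0.425). In the tests of whether that difference itself differed between 2 of these regions, 0 of 18 passed and 1 had an unadjusted p under 0.05. There 0.00668% (dorsal minus ventral striatum), 0.154% (dorsal striatum minus hypothalamus) and 0.1% (ventral striatum minus hypothalamus) of genes passed. Among the KO against WT estimates within a region the interval was narrowest for *Oprl1* in the hypothalamus (log2 -0.09, 95% interval -0.39 to 0.22) and widest for *Pnoc* in the dorsal striatum (0.30, 95% interval -1.99 to 2.59).

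**Figure D5:**
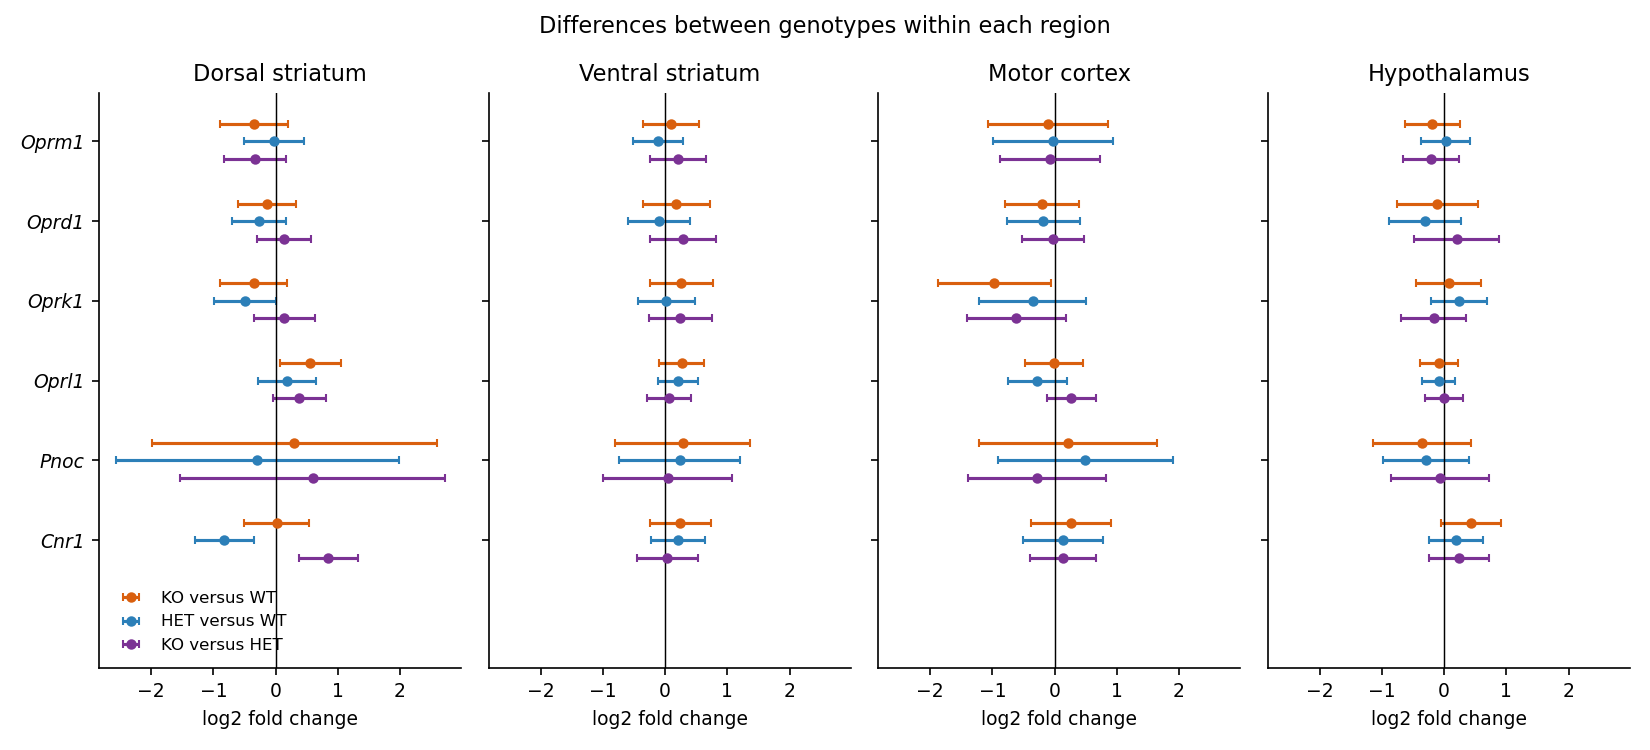
Log2 fold change between libraries labelled KO, HET and WT within each region for the 6 genes, with 95% intervals of the fit (orange KO over WT, blue HET over WT, purple KO over HET). Most intervals span 0; the 5 that do not include *Oprk1* in the motor cortex, at -0.97 for KO over WT, and *Cnr1* in the dorsal striatum, at 0.85 for KO over HET and -0.83 for HET over WT, and none passed the adjusted threshold.

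*Cnr1* in the dorsal striatum came closest to a call. The 3 HET libraries lay below both libraries labelled KO, with a log2 estimate of 0.85 for KO over HET (SE 0.24, 95% interval 0.37 to 1.32, adjusted p = 0.073). Of the WT libraries, mouse 1 (1081 CPM) was above all others of the region and mouse 2 (448) was within the HET range. The top rank of WT mouse 1 held only after TMM scaling. Before it, this library had 3609 *Cnr1* counts of 4549063, and KO mouse 7 had 4069 of 4510676. HET against WT gave -0.83 (SE 0.24, adjusted p = 0.183) and KO against WT 0.02 (SE 0.27, adjusted p = 0.997). Single libraries decided these values. HET against WT was -0.06 (adjusted p = 1.0) without WT mouse 1 and -1.33 (adjusted p = 9.23e-06) without WT mouse 2. KO against HET was 0.50 (adjusted p = 0.796) without KO mouse 7, 1.12 (adjusted p = 0.012) without KO mouse 8 and 0.98 (adjusted p = 0.0452) without HET mouse 6. WT mouse 1 also had the highest sum of the 11 spiny neuron genes in this region, 14050 CPM against 10268 to 11968 in the other 6. Its TMM factor was the lowest of all 28 libraries, 0.734 against 0.857 to 0.976 in the other dorsal striatal libraries. A low factor raises every CPM of a library, and the part of the scaling in this sum was not tested. KO mouse 7 had the most cortical transcripts and KO mouse 8 the choroid plexus transcripts given above, and the part of these in the result was not tested.

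*Oprl1* in the dorsal striatum was 13.6 and 17.3 CPM in the KO, 10.8, 11.5 and 13.3 in the HET and 9.89 and 10.9 in the WT libraries. The KO and WT libraries did not overlap, which held for 37.1% of genes in this comparison, and the log2 fold change was 0.56 (SE 0.25, adjusted p = 0.513). *Oprk1* there was 33.1 and 25.2 CPM in the KO, 29.1, 27.0 and 23.1 in the HET and 33.6 and 40.8 in the WT libraries. In CPM, KO and HET libraries all lay below both WT libraries, with log2 fold changes of -0.35 (adjusted p = 0.808) and -0.49 (adjusted p = 0.618). For WT mouse 1 this held only after TMM scaling. Before it, *Oprk1* had 112 of 4549063 counts in that library, 144 of 4510676 in KO mouse 7 and 143 of 5032136 in HET mouse 4. The summed CPM of 7 oligodendrocyte genes split the same libraries, at 3354 and 2869.7 in WT, 4121 to 4309 in HET and 4292 and 5507 in KO dorsal striatum. The part of this in the dorsal striatal genotype differences was not tested. In the motor cortex *Oprk1* had the largest KO against WT estimate of any member, -0.97 (95% interval -1.88 to -0.06, adjusted p = 1.0), against a single WT library. Of all 72 genotype comparisons of a member, 15 had groups that did not overlap. For KO against WT this was 2, 0, 3 and 1 of 6 members in dorsal striatum, ventral striatum, motor cortex and hypothalamus, where it held for 37.1%, 17.2%, 65.5% and 21.3% of all genes. For HET against WT it was 2, 0, 3 and 1 (21.5%, 11.2%, 67.2% and 11.1% of genes), and for KO against HET 2, 0, 1 and 0 (20.3%, 17.0%, 34.0% and 19.1%).

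Among the 50 pathway genes, 0 passed KO against WT in edgeR's likelihood ratio test in any region. An unadjusted p under 0.05 was found for 5, 4, 0 and 3 genes in dorsal striatum, ventral striatum, motor cortex and hypothalamus, and 0 passed with the quasi-likelihood test or DESeq2. KO against HET in the dorsal striatum called 1, *Kcnj6*, a potassium channel subunit, at 9.43 and 1.84 CPM in the KO, 2.24, 2.0 and 2.18 in the HET and 3.3 and 4.3 in the WT libraries (log2 1.43, SE 0.40, adjusted p = 0.0479). The KO and HET libraries overlapped, and the high value was that of KO mouse 7, the library with the most cortical transcripts in this region. *Kcnj6* averaged 44.6 CPM in the motor cortex, and the part of cortical transcripts in the call was not tested. The quasi-likelihood test and DESeq2 called 0 list genes there.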

How the data were processed

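RNA from 4 brain regions was sequenced as 50-base single-end reads on libraries of a kit that does not keep strand. The deposited counts are whole-number reads per gene: the authors trimmed reads (Trimmomatic 0.32), removed ribosomal reads (Bowtie2 2.2.3), aligned to GRCm38 (STAR 2.3.1z8, SAMtools 0.1.19) and counted with HTSeq 0.6.1p1 on Ensembl models, per the labels and methods. Counts on genes were 44.8% to 54.2% of the tallied reads, and the rows for other reads were left out of library sizes and tests. GENCODE M21 named 28758 of 29878 genes.

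Groups came from the labels. Genes above 1 CPM in at least 2 libraries were fitted with a 12-group model in edgeR 4.0.16 (R 4.3.3; TMM, likelihood ratio test as in the study, Benjamini-Hochberg adjustment, threshold 0.05; prior count 2 for log2 CPM). Group values are mean ± SD over libraries. The 95% intervals take the fitted SE as normal. Alternatives were the quasi-likelihood test, DESeq2 1.42.0, limma 3.58.1 with mouse as a random block, mouse as a fixed block, scaling by library size alone, no filter, the region alone, leaving out each library and, chosen after seeing the data, single genotypes. Genes named beyond the members were the listed pathway genes that passed (at most 4 a list and comparison by adjusted p), all precursors and endocannabinoid enzymes, the 3 genes most correlated with each member, *Hdc* and markers. The members and lists were chosen with earlier results of these data known. No replicate pair agreed within counting noise (chi-square per degree of freedom 1.78 to 13.3). The code was tested on simulated data. *Gpr52* was not analysed here.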

Additional observations from a re-analysis of the deposited data

How the results depend on the processing

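The 31 called regional differences of the 6 genes gave 667 values over the alternative settings. All 667 kept the direction and 645 the call, the exceptions being *Oprk1* and, within single genotypes, *Cnr1* between motor cortex and hypothalamus. *Oprk1* between the 2 striatal regions was 0.38 with DESeq2 (adjusted p = 0.0624), 0.24 when scaled by size alone (adjusted p = 0.216) and 0.255 to 0.545 with 1 library left out, and between ventral striatum and hypothalamus 0.23 by size alone (adjusted p = 0.172). Scaling by size alone brought *Cnr1* between ventral striatum and hypothalamus to a call (-0.38, adjusted p = 0.00904). Of the values without a call, 147 of 1238 changed sign. For genotypes, scaling by size alone gave 1 called member in place of 0 for KO against WT in the dorsal striatum (*Oprl1*, 0.84, adjusted p = 0.0495, where the median of all genes moved from -0.00 to 0.28 and 496 genes were called in place of 58) and 3 pathway genes in place of 0 (*Faah* 1.05, *Kcnj3* 1.03, *Gnai1* 0.58).

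For KO against HET in the dorsal striatum 1 member, *Cnr1*, was called in place of 0 by size alone (0.95, adjusted p = 0.00792) and with no filter (0.84, adjusted p = 0.0276), and 0 to 1 with 1 library left out. HET against WT in the dorsal striatum gave 0 to 1 called members with 1 library left out, and KO against WT averaged over 3 regions 0 to 1 (*Cnr1* without the dorsal striatum of WT mouse 1, 0.49, adjusted p = 0.0472). Between dorsal striatum and hypothalamus scaling by size alone turned *Npepps* to -0.29, *Arrb1* to -0.0471, *Abhd6* to -0.30, *Abhd12* to -0.31, *Gde1* to -0.19, *Daglb* to -0.27, *Ece1* to -0.0489 and *Dpp3* to -0.31, and between ventral striatum and hypothalamus *Gnao1* to -0.16. The same scaling moved the median of all genes from -0.03 to -0.24 for ventral striatum and from -0.05 to -0.28 for motor cortex over hypothalamus, and from -0.01 to -0.17 for dorsal over ventral striatum. Over all genes, the likelihood ratio test called more between genotypes than the other tools. KO against WT called 58, 12, 5 and 25 genes in dorsal striatum, ventral striatum, motor cortex and hypothalamus, against 12, 4, 3 and 4 with the quasi-likelihood test, 23, 6, 1 and 5 with DESeq2 and 5, 3, 2 and 4 with the random block. For KO against HET in the dorsal striatum these were 68, 13, 19 and 1, for HET against WT there 13, 3, 4 and 2, and for the average of 3 regions 79, 12, 19 and 11. In the dorsal striatum KO against WT called 151 genes without KO mouse 7, 29 without KO mouse 8, 11 without WT mouse 1 and 23 without WT mouse 2, and in the motor cortex alone in the fit it called 54. The cause was not tested.

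Mouse as a replicate block gave the same 6, 5, 6, 4, 4 and 6 called members for the 6 pairs of regions, and as a random block 0 for every genotype pair, with a fitted correlation of -0.015. Libraries of 1 number did not share their deviations from group means. These correlated at -0.0798 to 0.0856 between regions of a mouse (34 pairs) and -0.086 to 0.0798 between mice (56). In groups of 2 libraries the deviations are mirror images, so the second range is not independent of the first. Whether the digit names a mouse cannot be read from these values. Leaving out the WT motor cortex library was not run, because its comparisons cannot then be estimated. Depth limits *Pnoc* in the dorsal striatum, at 11 counts, and *Oprm1* and *Oprk1* in the motor cortex, at 90 and 116. Nothing says that replicates of a group differ in litter or day, and p-values measure the spread between these libraries.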
